A study of Mus musculus with 36 samples.

Results

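Alveolar type 2 surfactant genes were followed in mouse lungs through weekly allergen challenge, as 10 genes chosen by symbol from a list of type 2 cell genes: Sftpa1, Sftpb, Sftpc, Sftpd, Abca3, Lamp3, Slc34a2, Napsa, Lpcat1 and Neurl3. Of the 10, 9 had at least 1 probe set annotated to that gene alone, which made 18 probe sets of the 45101 on the array, and 15 of the 18 were bright enough to be tested. Lamp3 was present only on a probe set annotated to both Lamp3 and Ppid, whose values are given separately and counted for neither gene. The 36 samples of whole lung RNA each went onto an Affymetrix genome-wide mouse array with 1 colour, and all values below are log2 intensities.

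The 5 kinds of mice were C57BL/6 and labelled female. KitWsh_MCigeR mice have the genotype label KitWsh/FcεRIγ-/- and the engraftment label MCigeR. KitWsh_MCifngR mice are KitWsh mice with the engraftment label MCifngR, KitWsh_MC mice are KitWsh mice with the engraftment label MC, KitWsh mice were not engrafted, and WT mice are wild type and not engrafted. KitWsh is the sash allele of Kit, the stem cell factor receptor that mast cells need, and mice homozygous for it lack mast cells. The labels leave these engraftment codes unexplained, and the age is not given beyond the statement that mice were age-matched. In each kind, OVA mice received ovalbumin by 3 intraperitoneal injections of 50 µg in 0.1 ml on days 1, 4 and 7, then 20 µg in 30 µl into the nose weekly for 9 weeks from day 12, and PBS mice received saline on the same schedule. There were 4 arrays in every OVA group and in WT PBS lungs, and 3 in the PBS lungs of the other kinds. Whether arrays of a group came from separate animals is not stated, so p-values reflect only the variation among these samples, which may be technical.

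Some arrays stood apart. KitWsh_MCigeR PBS array 2 had a beta-actin 3' minus 5' difference of 8.43 on the log2 scale, a measure of RNA degradation, against 1.17 to 6.23 in the other 35 arrays, and a median correlation of 0.53 with the other arrays, against 0.87 to 0.96. A second control, the GAPDH 3' minus 5' difference, read 3.66 there. In the other 35 arrays it read 0.37 to 7.51, so it did not set this array apart. Its highest value was in KitWsh_MCifngR OVA array 1. KitWsh_MCigeR PBS array 2 was left out of the main tests, and values with it are given beside them. KitWsh_MC OVA array 2 had the beta-actin difference of 6.23. Eif2s3y, a Y-linked gene, read 9.07 in WT OVA array 4 and 9.81 and 9.25 in KitWsh_MCifngR OVA arrays 2 and 3, although all samples are labelled female, and in WT OVA array 4 Kit itself read 6.90, while the rest of that group lay between 10.6 and 11.0. These 4 further arrays, KitWsh_MC OVA array 2, WT OVA array 4 and KitWsh_MCifngR OVA arrays 2 and 3, stayed in the main tests. Results are given without them as well. Cpa3, a mast cell protease gene, read 3.48 to 5.11 in KitWsh_MCigeR OVA lungs, 5.94 to 9.59 in KitWsh_MCifngR OVA lungs, 5.36 to 7.39 in KitWsh_MC OVA lungs, 3.05 to 3.40 in KitWsh OVA lungs and 3.05 to 3.18 in WT OVA lungs, so WT OVA lungs lay under log2 5 like the mast cell-deficient KitWsh lungs. The PBS arrays among these 35 read 4.85 or less.

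Pulmonary surfactant is a film of phospholipid and protein that lowers surface tension at the air-liquid interface of the alveolus and keeps it open at low volume. Alveolar type 2 cells make its lipid and proteins, store the lipid with the hydrophobic proteins in lamellar bodies, secrete it and take much of it up again, while alveolar macrophages clear the rest. SP-A and SP-D, encoded by Sftpa1 and Sftpd, are secreted collectins that bind microbes and allergens, and SP-B and SP-C, encoded by Sftpb and Sftpc, are small hydrophobic proteins that spread the film. In whole lung RNA, fewer type 2 cells and less RNA per type 2 cell cannot be told apart.

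NKX2-1, a transcription factor of the lung epithelium, is known to bind surfactant promoters at sites built around CTCAAG, and this word was searched on both strands of the 250 bases before each start in the RefSeq promoter table (build GRCm38.p6), which held 7 of the 10 genes. CTCAAG was found once in Sftpa1, at position -166 from the start site, and 2 times in Sftpb, at positions -100 and -15, each on the strand of the gene. It was not found in Abca3, Lamp3, Slc34a2, Lpcat1 or Neurl3, which says only that these letters are not in this window. The Neurl3 window lies inside the annotated span of the gene, and the Abca3 window lies partly inside its span. Among all 32851 promoters of the table, 13.3% held the word at least once and 0.998% held it 2 or more times. GC content was 50.0% for Sftpa1, 58.4% for Sftpb and 69.6% for Slc34a2, against a median of 52.4% over the table. Of the 3 sequences below, Sftpa1 and Slc34a2 are shown because each has 1 probe set called higher with OVA in the mean of the 5 kinds. Sftpb is shown as the gene with the widest span of group means among those above log2 5 in every array. Each sequence is on the plus strand, and capitals mark CTCAAG. They lie at chr14:41131538-41131787 (Sftpa1), chr6:72304360-72304609 (Sftpb) and chr5:53049103-53049352 (Slc34a2).
Sftpa1: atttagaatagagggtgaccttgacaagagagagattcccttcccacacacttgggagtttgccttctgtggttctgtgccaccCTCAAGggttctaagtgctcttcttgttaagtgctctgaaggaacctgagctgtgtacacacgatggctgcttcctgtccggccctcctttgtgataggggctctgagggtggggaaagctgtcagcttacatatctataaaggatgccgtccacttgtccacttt
Sftpb: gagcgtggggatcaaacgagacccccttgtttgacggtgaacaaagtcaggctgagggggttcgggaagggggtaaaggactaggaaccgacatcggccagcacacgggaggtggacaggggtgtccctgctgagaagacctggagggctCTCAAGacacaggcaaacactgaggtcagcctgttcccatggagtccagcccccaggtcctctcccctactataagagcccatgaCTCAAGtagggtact
Slc34a2: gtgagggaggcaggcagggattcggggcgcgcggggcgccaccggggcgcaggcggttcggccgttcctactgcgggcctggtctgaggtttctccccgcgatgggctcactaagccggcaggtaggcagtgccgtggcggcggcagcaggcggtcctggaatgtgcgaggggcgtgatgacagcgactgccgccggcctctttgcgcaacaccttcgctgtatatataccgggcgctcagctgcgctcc

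All 9 genes with own probe sets except Neurl3 had bright signals in every one of the 35 arrays. Averaged over those arrays, the brightest probe set of each read 15.33 for Sftpc, 14.57 for Sftpa1, 13.68 for Sftpd, 13.39 for Slc34a2, 12.81 for Lpcat1, 12.41 for Sftpb, 11.97 for Napsa and 11.86 for Abca3, on an array scale that ended at 15.89. Neurl3 averaged 4.92 and exceeded log2 5, the level used here as the detection floor, in 17 of 35 arrays. Levels of different probe sets are not on a common scale and are not ranked against each other. Group means of Sftpc spanned 0.26 from the highest group to the lowest, those of Sftpa1 0.36 and those of Sftpb 2.72. Sftpc reached 15.51, close to the end of the scale, and whether its signal was compressed there was not tested. In the degraded array, Sftpc read 12.51, Sftpa1 10.80, Sftpd 10.84, Slc34a2 10.21, Sftpb 8.34, Napsa 6.10, Lpcat1 11.13, Abca3 11.44 and Neurl3 4.82, so 8 of the 9 were below every other KitWsh_MCigeR array and Neurl3 was not.

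**Figure D1:**
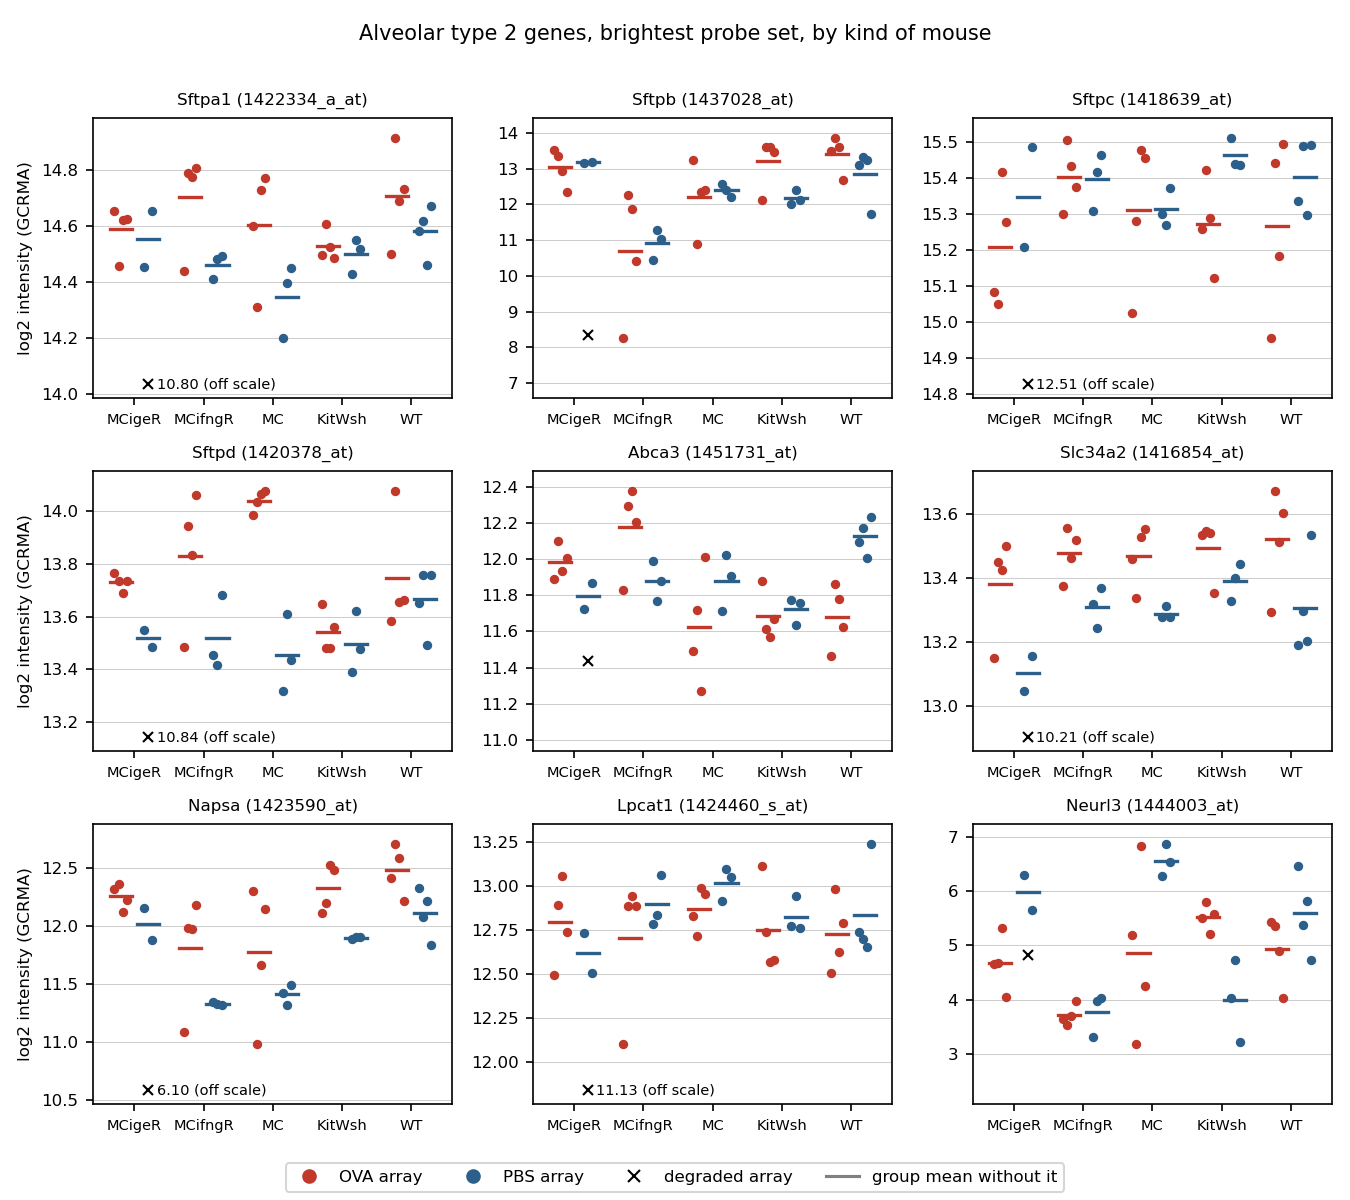
Log2 intensity of the brightest probe set of each of the 9 genes (one panel per gene, vertical axis) in every array, by kind of mouse (horizontal axis; MCigeR, MCifngR and MC are the engrafted KitWsh kinds), with OVA arrays in red left of PBS arrays in blue; horizontal bars are group means without the degraded array, which is drawn as a cross and written as a number where it is off the scale. Sftpc stayed between 14.95 and 15.51 in the other 35 arrays, and Sftpb ran from 8.26 to 13.87.

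Ordered by group mean, Sftpc was highest in KitWsh PBS lungs (15.46 ± 0.04, SD, n = 3) and lowest in KitWsh_MCigeR OVA lungs (15.21 ± 0.17, SD, n = 4), and none of the 9 pairs of neighbouring groups in that order lay farther apart than the larger SD of the pair. The same held for Sftpd, from 14.04 ± 0.04 in KitWsh_MC OVA lungs (SD, n = 4) to 13.45 ± 0.15 in KitWsh_MC PBS lungs (SD, n = 3). Slc34a2 was highest in WT OVA lungs (13.52 ± 0.17, SD, n = 4) and lowest in KitWsh_MCigeR PBS lungs (13.10 ± 0.08, SD, n = 2), and only its last step exceeded the larger SD. Napsa was highest in WT OVA lungs (12.48 ± 0.21, SD, n = 4) and lowest in KitWsh_MCifngR PBS lungs (11.33 ± 0.01, SD, n = 3), with 0 of 9 steps over the larger SD. Sftpb was highest in WT OVA lungs (13.42 ± 0.52, SD, n = 4) and lowest in KitWsh_MCifngR OVA lungs (10.70 ± 1.81, SD, n = 4). Its 1 large step, of 1.25, set the means of both KitWsh_MCifngR groups below the other 8. The beta-actin difference averaged 3.90 in KitWsh_MCifngR PBS lungs and 2.07 in KitWsh PBS lungs, the groups on either side of that step. Within groups, Sftpb had a slope of -0.70 on the beta-actin difference. The part of RNA quality in the step was not tested. Neurl3 was highest in KitWsh_MC PBS lungs (6.56 ± 0.30, SD, n = 3), and 6 of the 10 group means lay under log2 5, where levels have no order.

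After repeated OVA challenge, 4 probe sets of surfactant genes rose when the 5 kinds of mice were averaged with equal weight, and none fell. They belonged to the collectins Sftpa1 and Sftpd, to Slc34a2, the phosphate transporter of the type 2 cell's apical membrane, and to Napsa, the aspartic protease that helps cut the SP-B precursor. The increases were small, between 1.14-fold and 1.30-fold. Calls were made with limma at a two-sided Benjamini-Hochberg adjusted p under 0.05 over 22954 probe sets. The 4 of 15 probe sets called higher amount to 26.7%, beside 10.2% of all probe sets tested, and 0 of 15 were called lower, beside 15.2%; either direction made 25.4% of all probe sets. The median difference over the 9 genes was 0.14, beside -0.04 over all probe sets tested.

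Sftpd, the collectin that coats inhaled particles, gained 0.25 ± 0.06 (SE) over the 5 kinds (adjusted p = 0.00307, limma), with a positive difference in each kind. In KitWsh_MC lungs it read 13.99, 14.03, 14.07 and 14.08 with OVA, against 13.32, 13.61 and 13.44 with PBS. Every KitWsh_MC OVA array was above every KitWsh_MC PBS array. That difference of 0.59 ± 0.13 (SE), 1.50-fold, was the one called for Sftpd within a single kind (adjusted p = 0.00254, limma), and it kept its call when each of the 7 arrays was left out in turn but not in the fit with all 36 arrays, where the adjusted p was 0.318. In KitWsh_MCifngR lungs Sftpd read 13.49, 13.94, 13.83 and 14.06 with OVA, against 13.45, 13.42 and 13.68 with PBS, and the groups overlapped. In KitWsh_MCigeR lungs it read 13.77, 13.74, 13.69 and 13.74 with OVA, against 13.55 and 13.49 with PBS, without overlap and without a call (difference 0.21 ± 0.14, SE); the degraded PBS array read 10.84. In KitWsh lungs the difference was 0.05 ± 0.13 (SE) and in WT lungs 0.08 ± 0.12 (SE).

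Sftpa1, the gene of the collectin SP-A, has 2 probe sets, of which 1 was called. Probe set 1429626_at gained 0.29 ± 0.05 (SE) over the 5 kinds (adjusted p = 3.25e-04, limma), and 1422334_a_at gained 0.14 ± 0.05 (SE; adjusted p = 0.0615, limma). In KitWsh_MC lungs 1429626_at read 13.51, 13.38, 13.22 and 13.27 with OVA, against 12.97, 12.96 and 12.80 with PBS, without overlap. In KitWsh_MCifngR lungs it read 13.29, 13.67, 13.45 and 13.22 with OVA, against 12.98, 12.89 and 12.93 with PBS, again without overlap. In KitWsh lungs it read 13.20, 13.35, 13.26 and 13.20 with OVA, against 12.91, 12.81 and 12.91 with PBS. In each of these 3 kinds every OVA array was above every PBS array. In WT lungs it read 13.43, 13.58, 13.58 and 13.28 with OVA, against 13.55, 13.53, 13.52 and 13.29 with PBS, and the groups overlapped. In KitWsh_MCigeR lungs it read 13.35, 13.57, 13.39 and 13.35 with OVA, against 13.17 and 13.34 with PBS; the degraded array read 12.79.

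Within kinds, Sftpa1 1429626_at was called in KitWsh_MC lungs (0.44 ± 0.11, SE, adjusted p = 0.00860, limma) and in KitWsh_MCifngR lungs (0.48 ± 0.11, SE, adjusted p = 0.0490, limma). The KitWsh_MC call was lost without PBS array 3 (adjusted p = 0.0560), and the KitWsh_MCifngR call was lost in 5 of 7 omissions, with all 36 arrays (adjusted p = 0.307) and without the 4 arrays named above (0.33, adjusted p = 0.125). In KitWsh lungs the difference was 0.38 ± 0.11 (SE), with an adjusted p of 0.0562. In WT lungs it was -0.00 ± 0.11 (SE), with a 95% interval of -0.22 to 0.21. The difference between the KitWsh and WT responses was itself not called (adjusted p = 0.115, limma, the smallest among the members' probe sets in that comparison).

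Slc34a2 gained 0.19 ± 0.05 (SE) over the 5 kinds (adjusted p = 0.00709, limma) and had a positive difference in each kind, though it was called in none of them alone. In WT lungs it read 13.29, 13.67, 13.51 and 13.60 with OVA, against 13.19, 13.30, 13.20 and 13.54 with PBS. In KitWsh_MC lungs it read 13.46, 13.34, 13.53 and 13.56 with OVA, against 13.28, 13.31 and 13.28 with PBS, without overlap, and in KitWsh_MCifngR lungs 13.37, 13.56, 13.46 and 13.52 with OVA, against 13.32, 13.24 and 13.37 with PBS. These shifts were of the size of the spread within the OVA groups. With all 36 arrays the pooled difference was 0.38 ± 0.16 (SE), with an adjusted p of 0.0912.

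Napsa 1423590_at gained 0.37 ± 0.10 (SE) over the 5 kinds (adjusted p = 0.00959, limma), 1.30-fold, with a positive difference in each kind. In KitWsh lungs it read 12.11, 12.19, 12.52 and 12.48 with OVA, against 11.88, 11.90 and 11.90 with PBS, without overlap. In KitWsh_MC lungs it read 12.30, 10.98, 11.67 and 12.14 with OVA, against 11.42, 11.32 and 11.49 with PBS. The low OVA value came from the array with the beta-actin difference of 6.23. In KitWsh_MCifngR lungs it read 11.09, 11.98, 11.98 and 12.18 with OVA, against 11.34, 11.33 and 11.32 with PBS. The second Napsa probe set, 1430744_at, averaged 6.45 and gained 0.20 ± 0.15 (SE; adjusted p = 0.337, limma). With all 36 arrays, the pooled difference of 1423590_at was 0.77 ± 0.32 (SE), with an adjusted p of 0.0934.

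The 4 pooled calls all held when any 1 of the 35 arrays was left out. Without the 4 arrays named above they also held, at 0.27 for Sftpa1 1429626_at, 0.24 for Sftpd, 0.19 for Slc34a2 and 0.41 for Napsa 1423590_at. With all 36 arrays, Sftpa1 1429626_at (0.32) and Sftpd (0.43) kept their calls, and 16.5% of all probe sets were called. The probe set annotated to both Lamp3 and Ppid gained 0.24 ± 0.08 (SE; adjusted p = 0.0191, limma), and that signal cannot be assigned to Lamp3, a lysosomal membrane protein of lamellar bodies, or to Ppid.

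**Figure D2:**
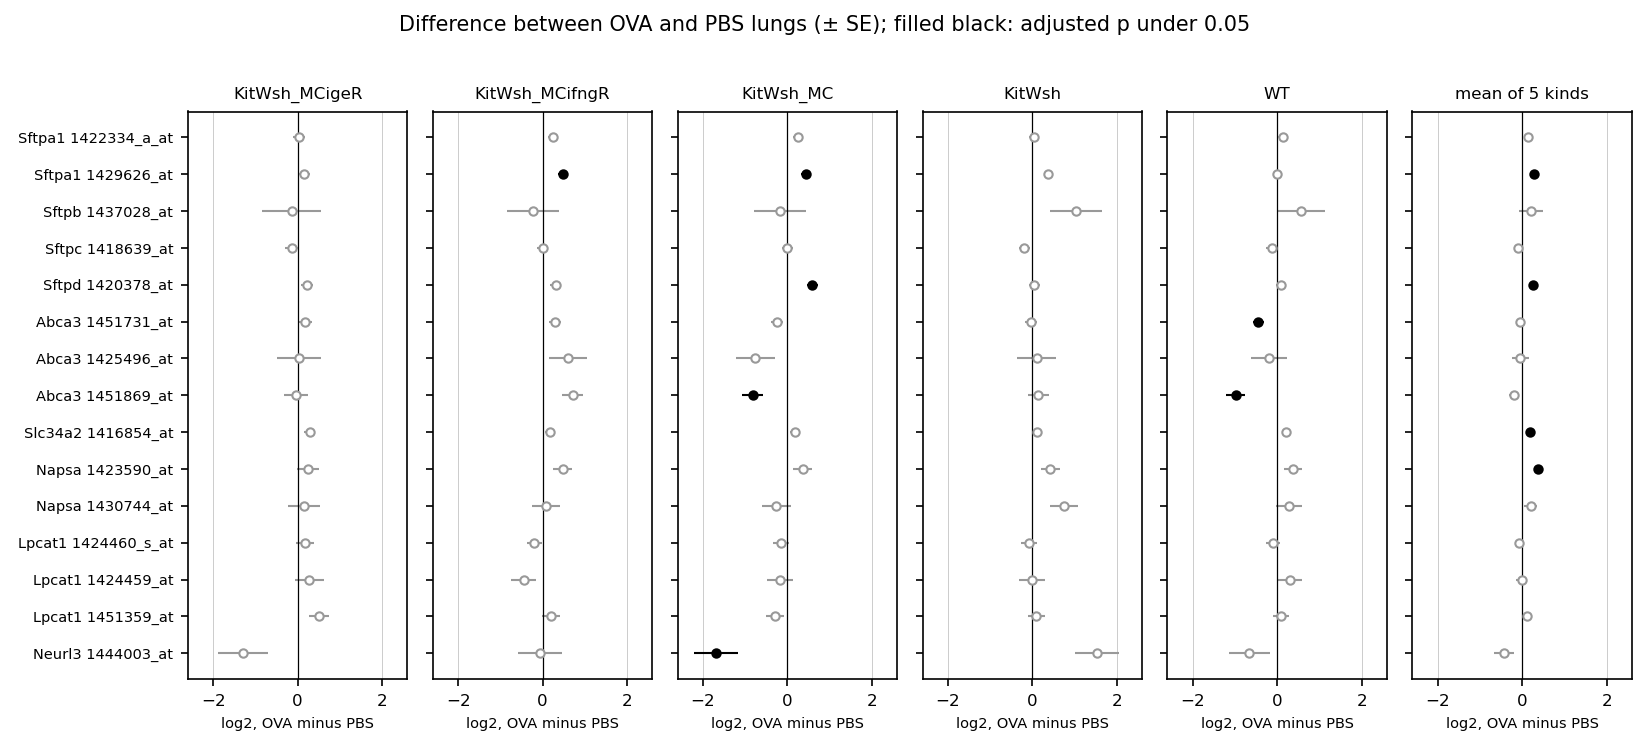
OVA minus PBS difference in log2 intensity (horizontal axis, points with SE bars) of the 15 tested probe sets (rows) in each kind of mouse and as the mean of the 5 kinds; filled points have an adjusted p under 0.05. In the mean panel the filled points are Sftpa1 1429626_at at 0.29, Sftpd at 0.25, Slc34a2 at 0.19 and Napsa 1423590_at at 0.37.

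The hydrophobic protein genes did not pass the test in any kind. Sftpc differed by -0.09 ± 0.06 (SE) over the 5 kinds, with a 95% interval of -0.21 to 0.03 and an adjusted p of 0.252 (limma), so differences of either sign lay within the interval. In KitWsh lungs Sftpc read 15.26, 15.42, 15.29 and 15.12 with OVA, against 15.51, 15.44 and 15.44 with PBS, without overlap and without a call (-0.19 ± 0.13, SE). Sftpb differed by 0.21 ± 0.28 (SE), with an interval of -0.36 to 0.78, wider than that of Sftpc. In KitWsh_MCifngR lungs Sftpb read 8.26, 12.25, 11.88 and 10.41 with OVA, against 10.45, 11.28 and 11.02 with PBS. In WT lungs it read 13.51, 13.87, 13.62 and 12.67 with OVA, against 13.11, 13.32, 13.23 and 11.74 with PBS. Array 4 was the lowest of both WT groups, and the KitWsh_MCifngR OVA arrays lay on both sides of the PBS arrays.

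A second Sftpc probe set, 1438290_x_at, was not tested because it exceeded log2 5 in 2 arrays. Those were KitWsh_MC OVA arrays 3 and 4, at 6.66 and 6.08, while the other KitWsh_MC OVA arrays read 2.97 and 4.20 and the KitWsh_MC PBS arrays read 2.98, 3.04 and 3.41. Lpcat1 probe sets 1420294_at and 1420293_at stayed at or below 3.80 in all 35 arrays and were not tested either.

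Abca3, the transporter that loads phospholipid into lamellar bodies, fell with OVA in WT lungs. Probe set 1451869_at read 5.96, 5.98, 5.98 and 5.86 in WT OVA lungs, against 6.93, 7.24, 6.91 and 6.65 in WT PBS lungs, and 1451731_at read 11.46, 11.86, 11.78 and 11.62, against 12.09, 12.17, 12.01 and 12.23. Neither pair of groups overlapped. The differences were -0.99 ± 0.23 (SE; 0.50-fold; adjusted p = 0.0103, limma) and -0.44 ± 0.13 (SE; 0.73-fold; adjusted p = 0.0366, limma), the 2 of 15 called lower in WT lungs (13.3%), beside 5.87% of all probe sets called lower and 9.58% in either direction. The first held in all 8 omissions but not with all 36 arrays (adjusted p = 0.0715), and the second was lost in each of the 8 omissions. Without the 4 arrays named above, among them WT OVA array 4, the first was -0.96 (adjusted p = 0.00414). The third Abca3 probe set, 1425496_at, differed by -0.20 ± 0.42 (SE) in WT lungs.

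Abca3 did not fall in every kind. In KitWsh_MC lungs 1451869_at read 5.26, 4.66, 5.53 and 5.98 with OVA, against 5.99, 5.99 and 6.55 with PBS, a difference of -0.82 ± 0.25 (SE; adjusted p = 0.0201, limma). That call was lost without OVA array 2, the array of 4.66, or without PBS array 3, and without the 4 arrays named above (-0.59, adjusted p = 0.0742). In KitWsh_MCifngR lungs it read 5.97, 6.43, 6.68 and 6.01 with OVA, against 6.00, 5.61 and 5.05 with PBS, a difference of 0.72 ± 0.25 (SE) that was not called (adjusted p = 0.233). The responses of these 2 kinds differed by 1.54 ± 0.35 (SE; adjusted p = 0.0370, limma), 1 of 15 probe sets beside 0.78% of all, but the call was lost in 9 of 14 omissions and without the 4 arrays named above (1.03, adjusted p = 0.116). In KitWsh lungs the difference was 0.14 ± 0.25 (SE) and in KitWsh_MCigeR lungs -0.05 ± 0.28 (SE). Over the 5 kinds no Abca3 probe set was called, with differences of -0.05, -0.05 and -0.20.

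**Figure D3:**
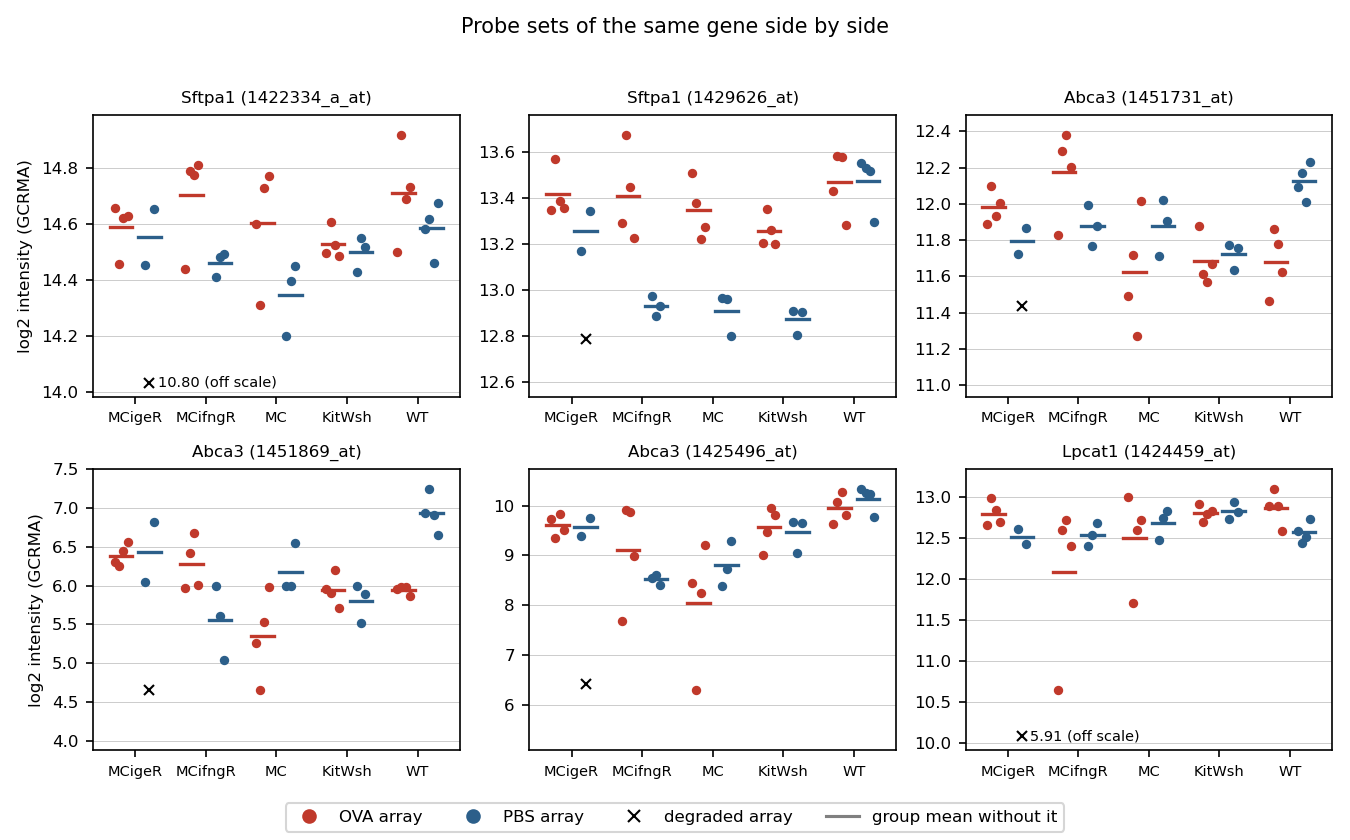
Log2 intensity (vertical axis) of the 2 Sftpa1, 3 Abca3 and 1 of the Lpcat1 probe sets in every array by kind of mouse (horizontal axis, engrafted kinds by engraftment), OVA in red left of PBS in blue, with bars at group means without the degraded array, a cross. Sftpa1 1429626_at lay between 12.80 and 12.98 in all PBS arrays of KitWsh_MCifngR, KitWsh_MC and KitWsh lungs, and between 13.29 and 13.55 in WT PBS lungs.

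Lpcat1, the acyltransferase that remodels phosphatidylcholine into the disaturated surfactant lipid, passed the test on none of its 3 tested probe sets in any kind, and its pooled differences were -0.07 ± 0.08, -0.01 ± 0.14 and 0.12 ± 0.09 (SE), with no interval reaching beyond 0.31 in size. Probe set 1424459_at read 10.64, 12.60, 12.71 and 12.40 in KitWsh_MCifngR OVA lungs, against 12.40, 12.53 and 12.68 in KitWsh_MCifngR PBS lungs, a difference of -0.45 ± 0.30 (SE); OVA array 1 lay below the other 6. Per kind, the members' calls were thus 2 of 15 in WT lungs, 0 in KitWsh lungs (beside 3.48% of all probe sets; 3 members at an unadjusted p under 0.05), 4 in KitWsh_MC lungs (beside 21.6%), 1 in KitWsh_MCifngR lungs (beside 0.479%) and 0 in KitWsh_MCigeR lungs (beside 0.0261%; 3 at an unadjusted p under 0.05). With the degraded array in the fit, the smallest adjusted p in KitWsh_MCigeR lungs was 0.0503 and 9 of 15 probe sets had an unadjusted p under 0.05, and Sftpb moved to 1.47 ± 0.83 (SE), against -0.14 ± 0.70 (SE) without it. The share of all probe sets at an unadjusted p under 0.05 is not given here. The unadjusted counts therefore cannot be read as a result about the members.

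Neurl3, a ubiquitin ligase of the neuralized family, had the largest differences of the set, on low signals. It read 5.20, 3.18, 6.83 and 4.25 in KitWsh_MC OVA lungs, against 6.28, 6.88 and 6.53 in KitWsh_MC PBS lungs, a difference of -1.70 ± 0.52 (SE; adjusted p = 0.0221, limma), although OVA array 3 lay within the PBS range, and the call was lost in 4 of 7 omissions and without the 4 arrays named above (-1.14, adjusted p = 0.0957). In KitWsh lungs it read 5.50, 5.80, 5.20 and 5.57 with OVA, against 4.03, 4.73 and 3.21 with PBS, at least 1.43-fold higher since all 3 PBS arrays lay under the floor, and not called (adjusted p = 0.0880). Both differences rest partly on values under log2 5. With these raised to 5, a setting chosen after seeing the data, the KitWsh_MC difference was -1.06 ± 0.31 (SE, adjusted p = 0.0161, limma). The KitWsh difference was then 0.52 ± 0.31 (SE, adjusted p = 0.345, limma) and not called. The same setting gave a mean of -0.38 ± 0.14 (SE) over the 5 kinds, with an adjusted p of 0.0451. The responses of KitWsh_MC and KitWsh lungs differed by -3.23 ± 0.74 (SE; adjusted p = 0.0133, limma), the 1 of 15 probe sets called there, beside 6.33% of all, and the call held in all 14 omissions and with all 36 arrays (adjusted p = 0.0462). With values under log2 5 raised to 5 the difference was -1.57 ± 0.43 (SE; adjusted p = 0.0287, limma). In KitWsh_MCifngR lungs all 7 values lay between 3.31 and 4.03, under the floor in both groups. In WT lungs Neurl3 read 5.43, 5.36, 4.89 and 4.03 with OVA, against 6.46, 5.37, 5.81 and 4.73 with PBS, and in KitWsh_MCigeR lungs 4.65, 4.68, 5.32 and 4.05 with OVA, against 6.30 and 5.65 with PBS, neither called.

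Lungs that received only PBS already differed between kinds for part of the set. Sftpa1 1429626_at was lower in KitWsh PBS lungs than in WT PBS lungs by -0.60 ± 0.11 (SE; 0.66-fold; adjusted p = 0.00234, limma), on the values given above, which did not overlap, and the call held in all 7 omissions and with all 36 arrays (adjusted p = 0.0244). Its second probe set, 1422334_a_at, differed by -0.08 ± 0.12 (SE) with overlapping groups. Abca3 1451869_at read 6.00, 5.52 and 5.89 in KitWsh PBS lungs, against 6.93, 7.24, 6.91 and 6.65 in WT PBS lungs (-1.13 ± 0.25, SE, adjusted p = 0.00659, limma), a call lost without KitWsh PBS array 2. The other Abca3 probe sets were also lower without overlap, by -0.40 ± 0.15 and -0.68 ± 0.45 (SE), and were not called. The -0.68 is for 1425496_at, which had a slope of -0.66 on the beta-actin difference within groups. That beta-actin difference averaged 2.07 in KitWsh PBS lungs and 1.37 in WT PBS lungs. The part of RNA quality in the -0.68 was not tested. Sftpa1 1429626_at and Abca3 1451869_at were the 2 of 15 called, both lower, beside 3.03% of all probe sets called lower and 7.28% in either direction. Sftpc (0.06 ± 0.13, SE), Sftpd (-0.17 ± 0.13, SE) and Slc34a2 (0.08 ± 0.11, SE) were not called. The probe set of Lamp3 and Ppid was lower by -0.55 ± 0.17 (SE; adjusted p = 0.0393, limma), a call lost in 6 of 7 omissions.

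These PBS differences and the OVA responses share the PBS arrays, so they are not independent of each other. Sftpa1 1429626_at averaged 12.93 in KitWsh_MCifngR PBS lungs, 12.91 in KitWsh_MC PBS lungs and 12.87 in KitWsh PBS lungs, against 13.47 in WT PBS lungs, while KitWsh_MCigeR PBS lungs averaged 13.26 without and 13.10 with the degraded array. Between engrafted and unengrafted PBS lungs 1 member was called: Neurl3 was higher in KitWsh_MC PBS lungs than in KitWsh PBS lungs by 2.57 ± 0.56 (SE; adjusted p = 0.00266, limma), or at least 2.95-fold against the floor, beside 18.3% of all probe sets called there. The 3 KitWsh_MC PBS values of 6.28, 6.88 and 6.53 lay above the KitWsh PBS values of 4.03, 4.73 and 3.21. The median over all probe sets was -0.11 in that comparison.

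Challenged lungs of 3 other kinds were set against KitWsh_MC OVA lungs, and each time members were called in a smaller share than all probe sets. The calls were for Sftpd, Abca3, Napsa and Sftpb. Sftpd was higher in KitWsh_MC OVA lungs than in KitWsh OVA lungs, which read 13.65, 13.48, 13.48 and 13.56, by 0.50 (adjusted p = 0.00298, limma), a call that held in all 8 omissions but not with all 36 arrays (adjusted p = 0.333). In the same comparison Abca3 1425496_at (-1.51), Napsa 1423590_at (-0.55) and Napsa 1430744_at (-1.26) were called lower, which made 4 of 15 called beside 29.4% of all probe sets. Abca3 1425496_at was -0.93 without KitWsh_MC OVA array 2, where its call was lost, and Napsa 1423590_at was -0.29 there, also without a call. The beta-actin difference averaged 3.34 in KitWsh_MC OVA lungs and 1.74 in KitWsh OVA lungs, and with it as a covariate only the Sftpd call was kept among the 15, with Abca3 1425496_at at -0.46, Napsa 1423590_at at -0.14 and Napsa 1430744_at at -0.66.

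Against KitWsh_MC OVA lungs, KitWsh_MCifngR OVA lungs were higher in Abca3 1451731_at by 0.55 (adjusted p = 0.00316, limma) and in 1451869_at by 0.92 (adjusted p = 0.00373, limma) and lower in Sftpb by -1.52 (adjusted p = 0.0418, limma), 3 of 15 beside 32.4% of all. Both Abca3 calls held in all 8 omissions and were lost without the 4 doubted arrays (differences of 0.42 and 0.40). The Sftpb call was lost in 5 of 8 omissions, while without the 4 arrays its difference was -3.33. That fit kept only arrays 1 and 4 of the KitWsh_MCifngR OVA group. Their beta-actin differences were 4.81 and 3.48, against 2.26 and 2.97 in arrays 2 and 3. Sftpb had a slope of -0.70 on that difference, and the part of RNA quality in the -3.33 was not tested. With the 4 arrays kept and the beta-actin difference as a covariate, the Sftpb difference was -1.49 (adjusted p = 0.0063, limma). The beta-actin difference averaged 3.38 in KitWsh_MCifngR OVA lungs and 3.34 in KitWsh_MC OVA lungs. The median over all probe sets was 0.14 in this comparison. KitWsh_MCigeR OVA lungs were higher than KitWsh_MC OVA lungs in Abca3 1425496_at by 1.56 (adjusted p = 0.0143, limma) and in 1451869_at by 1.03 (adjusted p = 0.00473, limma), 2 of 15 beside 16.8% of all. The first was lost without KitWsh_MC OVA array 2 (0.97) and with the beta-actin covariate. The response itself was not called different for any member between KitWsh_MCigeR and KitWsh_MC lungs (0 of 15 by limma, beside 0.0305% of all, with 2 at an unadjusted p under 0.05) or between KitWsh and WT lungs (0 of 15, beside 0.2%, with 3 at an unadjusted p under 0.05). For these unadjusted counts too, the share of all probe sets is not given.

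RNA quality divided these probe sets. The slope of log2 intensity on the beta-actin difference within groups, over 35 arrays, was -0.70 ± 0.14 (SE) for Sftpb, -0.66 ± 0.07 for Abca3 1425496_at, -0.39 ± 0.15 for Neurl3, -0.38 ± 0.08 and -0.26 ± 0.05 for Napsa, -0.31 ± 0.07 for Lpcat1 1424459_at, -0.24 ± 0.06 for Abca3 1451869_at and -0.09 ± 0.03 for Sftpa1 1422334_a_at, each called by limma. Such a slope, in either direction, was called for 36.3% of all probe sets. Sftpc, Sftpd, Slc34a2, Sftpa1 1429626_at, Abca3 1451731_at and the other Lpcat1 probe sets were not called, with slopes between -0.05 and 0.02. The group means of the beta-actin difference were 1.95 and 1.54 in KitWsh_MCigeR OVA and PBS lungs, 3.38 and 3.90 in KitWsh_MCifngR OVA and PBS lungs, 3.34 and 2.92 in KitWsh_MC OVA and PBS lungs, 1.74 and 2.07 in KitWsh OVA and PBS lungs, and 1.29 and 1.37 in WT OVA and PBS lungs. With that difference as a covariate, the 4 pooled calls were kept, at 0.29 for Sftpa1 1429626_at, 0.25 for Sftpd, 0.19 for Slc34a2 and 0.37 for Napsa 1423590_at.

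**Figure D4:**
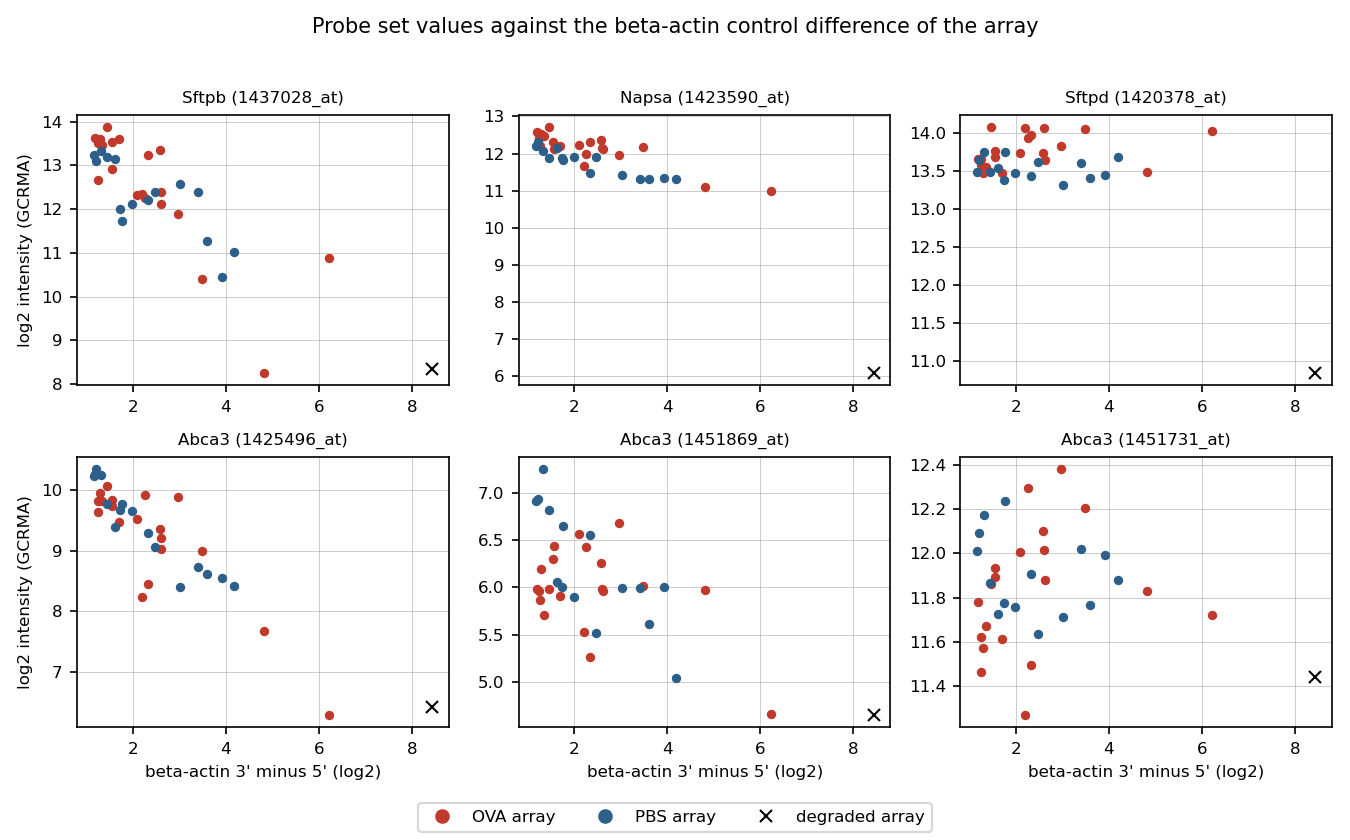
Log2 intensity (vertical axis) of 6 probe sets against the beta-actin 3' minus 5' difference of each array (horizontal axis, log2), with OVA arrays in red and PBS arrays in blue and the degraded array as a cross. Sftpb and Abca3 1425496_at run downward over the arrays (within-group slopes -0.70 and -0.66 over 35 arrays), and Sftpd does not (slope -0.01).

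Genes around surfactant were read from lists by role, in the mean of the 5 kinds, where 10.2% of all probe sets were called higher and 15.2% lower. Of 9 transcription factors of type 2 cells, Etv5 (0.65 ± 0.14, SE) and Nkx2-1 were called higher, Nfib (-0.37 ± 0.07, SE) fell and 6 did not pass. The Nkx2-1 probe set lay under log2 5 in all PBS arrays and averaged 3.38 over 35 arrays, so no fold is given for it. It passed the brightness filter only through OVA arrays, which set the direction of its call, so that call carries no weight. Of 15 lipid synthesis genes tested, the fatty acid carrier Fabp5 (0.40), fatty acid synthase Fasn (0.42) and the desaturase Scd1 (0.40) rose, and Chpt1 (-0.27), a choline phosphotransferase, fell. Of 10 genes for processing and lysosomes, Ctsc (0.59), the proton pump subunit Atp6v0a1 (0.60), Ctsh (0.36), a protease of SP-B and SP-C precursors, and Gga1 (0.60) rose, and Adgrf5 (-0.22), a receptor that limits the surfactant pool, fell; Adgrf5 was named after its value was seen. Of 13 other genes rich in type 2 cells, 6 rose and none fell, led by the alarmin Il33 (1.19 ± 0.16, SE), the chitinase-like Chil1 (0.77 ± 0.12, SE), the chemokine Cxcl15 (0.29 ± 0.07, SE) and Egfl6 (0.42 ± 0.12, SE). In PBS lungs, Egfl6 (-1.47 ± 0.27, SE, adjusted p = 0.00199, limma) and Cxcl15 (-0.69 ± 0.16, SE, adjusted p = 0.0103, limma) were lower in KitWsh than in WT mice, 2 of these 13, beside 3.03% of all probe sets called lower.

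Markers of other cells moved in the same comparison, beside the same 10.2% called higher and 15.2% called lower. All 8 goblet cell markers were called higher, led by Clca1 (7.07). Of these, Muc5ac, Spdef and Itln1 lay under log2 5 in every PBS array. They passed the brightness filter only through OVA arrays, which set their direction, so their calls carry no weight. The calls left are those of Clca1, Muc5b, Agr2, Fcgbp and Tff2. Agr2 averaged 5.75 over the 35 arrays, near the floor, and how far it passed the filter through OVA arrays was not tested. The summed level of the list ran from 8.91 to 14.73 over OVA arrays, with a median of 13.80. Over PBS arrays it ran from 8.31 to 10.87, with a median of 9.52. Of 8 leukocyte markers 4 rose, among them Itgax (1.08), which had the smallest adjusted p, and Cd68 (1.52), with summed levels of 13.58 to 14.88 over OVA arrays, against 13.56 to 14.55 over PBS arrays. Of 11 alveolar type 1 markers 4 fell and none rose, of 7 club cell markers 3 fell and none rose, and of 7 ciliated cell markers 4 fell and none rose. Of 6 endothelial markers Kdr (-0.38) and Tek (-0.41) fell and none rose, and of 6 fibroblast markers Col1a1 (0.90) rose and Dcn (-0.90) and Pdgfra (-0.31) fell. The summed level of the 9 surfactant genes ran from 16.54 to 17.09 over OVA arrays, against 16.59 to 16.88 over PBS arrays. The part of shifts in cell makeup in the surfactant results was not tested.

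Within groups, the members did not all vary together. Over 35 arrays with group means subtracted, Napsa had a Pearson r of 0.69 and Sftpa1 of 0.67 with the mean of the other members, Sftpb 0.55 and Sftpd 0.50, while Sftpc (0.12) and Abca3 (0.11) had almost none. Of 11555 genes, the 10 outside the set most like the members' mean were Slc12a7 (0.89), Ehmt2 (0.89), Orai1, Plin3, Zdhhc8, Coro1c, Kdm6b, Ubxn4, Stat3 and Csnk1g2, the last at 0.86. None of them was among the 10 most alike when group means were kept. The means were taken over log2 values without scaling, so members with a wide spread weighed most in them. Group SDs reached 1.81 for Sftpb and 1.55 for Neurl3, which was often under the floor, against 0.25 for Sftpc. Likeness to the members' mean is therefore largely likeness to the widest members. The points share arrays and their RNA quality, and these values are descriptions of these arrays.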

How the data were processed

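Per the submitters' processing notes, the authors used GCRMA to make the deposited log2 intensities, with no version named there. That method subtracts a sequence-based background, normalises by quantiles and summarises probe sets, so the lowest values depend on its background estimate. Precision is limited by how many arrays there are. No further normalisation was applied. Probe sets were named from GEO's platform annotation, which gave 1 symbol for 34958, several for 932 and none for 9211. Probe sets over log2 5 in at least 3 of 35 arrays were tested (22954, without the 64 controls). Means of the 10 groups were fitted over 35 arrays with limma 3.58.1 (R 4.3.3; 25 residual degrees of freedom), two-sided with Benjamini-Hochberg adjustment over all probe sets; the degraded array was left out because it widens the shared spread. The 15 comparisons and 8 kinds of alternative setting were listed in advance, and raising values under log2 5 to 5 was added after seeing the data; the fit was tested on simulated data. The members, gene lists and doubted arrays were chosen with earlier results of these data known. Named genes were all members, the 2 to 4 genes of smallest adjusted p of each list and the 10 most alike genes. At-least folds are set against log2 5. No 2 arrays were identical (highest correlation 0.993).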

Additional observations from a re-analysis of the deposited data

Results flagged for a closer look

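In 6 groups of 4 arrays, 15 probe sets gave 90 checks for an array far from the other 3, and 10 were found; chance flags about 1 in 20. KitWsh_MCifngR OVA array 1 was low in Sftpa1 1422334_a_at (14.439), Lpcat1 1424460_s_at (12.099) and Lpcat1 1424459_at (10.64), and its beta-actin difference was 4.81. WT PBS array 4 was low in Sftpb (11.735) and Sftpa1 1429626_at (13.294) and high in Lpcat1 1424460_s_at (13.243). KitWsh OVA array 1 was low in Sftpb (12.127) and KitWsh OVA array 4 in Slc34a2 (13.353). KitWsh_MCigeR OVA array 2 was low in Sftpa1 1422334_a_at (14.457), and WT OVA array 2 was high in Sftpd (14.079). The response to OVA differed between kinds for Neurl3 (KitWsh_MC minus KitWsh, -3.23, or -1.57 with values under log2 5 raised to 5) and for Abca3 1451869_at (KitWsh_MCifngR minus KitWsh_MC, 1.54). What set these arrays apart was not tested.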

How the results depend on the processing

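Counts of the members' 15 tested probe sets called were 2 in WT, 0 in KitWsh, 4 in KitWsh_MC, 1 in KitWsh_MCifngR, 0 in KitWsh_MCigeR and 4 in the mean of the 5 kinds. With all 36 arrays they were 0 in WT, 2 in KitWsh_MC, 0 in KitWsh_MCifngR and 2 in the mean; the response difference of KitWsh_MCifngR and KitWsh_MC had 0 instead of 1, the PBS comparison of KitWsh with WT 1 instead of 2, and the OVA comparisons 1 instead of 4 (KitWsh_MC with KitWsh) and 0 instead of 2 (KitWsh_MCigeR with KitWsh_MC). With 1 probe set per gene, and so 9 tested, they were 1 in WT, 2 in KitWsh_MC, 0 in KitWsh_MCifngR, 0 in that response difference, 0 in KitWsh PBS lungs against WT, 2 in KitWsh_MC OVA lungs against KitWsh and 0 in KitWsh_MCigeR OVA lungs against KitWsh_MC. Centring each array on its median gave 1 in WT, 0 in KitWsh_MCifngR and 5 instead of 3 in KitWsh_MCifngR OVA lungs against KitWsh_MC, and quantile normalisation gave 0 in KitWsh_MCifngR and 2 instead of 1 in the response difference of KitWsh_MC and KitWsh. Without a filter on low values KitWsh had 1 and KitWsh_MCigeR OVA lungs against KitWsh_MC 4. With the beta-actin covariate KitWsh had 1, and the OVA comparisons had 1 (KitWsh_MC with KitWsh), 5 (KitWsh_MCifngR with KitWsh_MC) and 1 (KitWsh_MCigeR with KitWsh_MC). Without the 4 other doubted arrays KitWsh had 2 and the response difference of KitWsh_MCifngR and KitWsh_MC 0. The cause was not tested. Under these settings, and with single arrays left out, the share of all probe sets called is not given. The exception is the 16.5% in the mean of the 5 kinds with all 36 arrays. A change in the members' count therefore cannot be told from a change in the share of all probe sets called.

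Leaving out each array in turn gave counts of 1 in WT, 0 to 1 in KitWsh, 1 to 4 in KitWsh_MC, 0 to 1 in KitWsh_MCifngR, 4 to 5 in the mean of 5 kinds, 1 to 2 and 0 to 2 in the 2 response differences with calls, 1 to 3 in KitWsh PBS lungs against WT, and 2 to 5, 2 to 5 and 1 to 5 in the 3 OVA comparisons. The lowest counts came without PBS array 3 in KitWsh_MC lungs, without KitWsh PBS array 2 in KitWsh PBS lungs against WT, and without KitWsh_MC OVA array 2 in the OVA comparisons of KitWsh_MC with KitWsh and of KitWsh_MCigeR with KitWsh_MC.

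The differences below turned sign, and none of them was called in the 35 arrays. Each is for the brightest probe set of its gene, which for Sftpa1 is 1422334_a_at and not 1429626_at. With all 36 arrays Sftpb (1.47) and Sftpc (0.80) turned in KitWsh_MCigeR lungs, and Sftpc (0.10) and Lpcat1 (0.0302) in the mean of 5 kinds. With the beta-actin covariate Sftpa1 read -0.00115 in KitWsh lungs, Sftpb 0.12 and Sftpc 0.00624 in KitWsh_MC lungs, Sftpc -0.00593 in KitWsh_MCifngR lungs and Sftpb 0.15 in KitWsh_MCigeR lungs. Quantile normalisation gave Sftpd -0.0242 in KitWsh lungs and Sftpc 0.0744 in KitWsh_MC lungs, and centring gave Sftpc 0.0735 there and -0.0100 in KitWsh_MCifngR lungs. Without the doubted arrays Sftpb (0.26) and Sftpc (0.00545) turned in KitWsh_MC lungs, and Sftpc (-0.0588) and Neurl3 (0.0379) in KitWsh_MCifngR lungs. Omitting single arrays turned Sftpd (-0.0313 to 0.13) and Lpcat1 (-0.19 to 0.0307) in WT, Sftpa1 (-0.00639 to 0.0548) and Sftpd (-0.00696 to 0.11) in KitWsh, Sftpb (-0.52 to 0.26) and Sftpc (-0.0605 to 0.0907) in KitWsh_MC, Sftpb (-0.73 to 0.60), Sftpc (-0.0363 to 0.0421), Lpcat1 (-0.27 to 0.0108) and Neurl3 (-0.29 to 0.0745) in KitWsh_MCifngR, and Sftpa1 (-0.0639 to 0.14) and Sftpb (-0.31 to 0.0930) in KitWsh_MCigeR lungs. No paired analysis was possible because the numbers in the titles run from 1 to 36 over the whole series and pair no samples. Signals under log2 5, such as Neurl3 in KitWsh_MCifngR lungs, have no order.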

Other observations

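Macrophage genes for surfactant clearance moved as well. In the mean of the 5 kinds, 5 of 7 tested genes of that list rose with OVA, beside 10.2% of all probe sets called higher, led by the lysosomal phospholipase Pla2g15 (0.83 ± 0.16, SE), Csf2rb (0.76 ± 0.16, SE), a chain of the GM-CSF receptor that alveolar macrophages need to clear surfactant, Csf2ra (1.17 ± 0.26, SE), the other chain, and the cholesterol exporter Abcg1 (0.56 ± 0.13, SE). Abca1, another lipid exporter, fell by 0.35 on the log2 scale and was named after its value was seen. The summed level of the list ran from 11.38 to 12.52 over OVA arrays, against 11.67 to 11.96 over PBS arrays. Of 6 genes of stressed or transitional epithelium, Lcn2 (1.50 ± 0.24, SE), Sfn (0.79 ± 0.21, SE) and Cdkn1a (0.51 ± 0.15, SE) rose, and the keratins Krt8, Krt18 and Krt19 did not pass the test. These calls are limma's, at an adjusted p under 0.05.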
